A study of Mus musculus with 4 samples.

Results

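Homologous recombination and Fanconi anaemia repair genes were followed in the mouse mammary epithelial cell line Comma D beta. The set has 33 genes, listed by their place in these pathways, with earlier results of these data known. Probe sets whose array annotation names one of the genes were taken, and where a gene had several, the brightest on average stands for it. Of the 33 genes, 31 had such a probe set, out of 18194 genes named on the array. Xrcc2 and Rbbp8 were not analysed here. Of the 31 genes, 30 reached 3.63 (log2), the median of the pooled values of all probe sets, on at least 1 array, and 25 lay above the floor of the deposited values on all 4 arrays. Bard1 did not reach that median: it read 3.53 on 1 array and lay at the floor on the other 3.

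The medium of all groups held 2% serum, 5 ug/ml insulin and 10 ng/ml EGF. Doxycycline (dox, 100 ng/ml) was given for 1 day or left out. Cells of both treatments were sorted by antibody staining for the surface protein Sca1, 200k cells per fraction, and total RNA was hybridised to 1 array per group. The 4 groups are Sca1+ and then Sca1- cells without dox, followed by Sca1+ and then Sca1- cells given dox, all of the same line, and levels of 1 gene are given below in that order. The series title names Bcl11b. The labels do not say what dox controls in this line. There was no replicate of any group, so a difference between 2 arrays has no replicate error and was not tested. The closing section gives an additive fit over all 4 arrays, which takes the dox difference as equal in both fractions. A gene is counted as different by size alone, at 2-fold or more, which is a log2 difference of 1. Because whole fractions were measured in bulk, fewer cells expressing a gene and less RNA per cell cannot be told apart.

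Homologous recombination repairs a broken DNA molecule by copying an intact one, usually the sister chromatid, so it works mainly in cells that are replicating or have replicated their DNA. The break is detected by the Mre11-Rad50-Nbn complex and the kinase Atm, its ends are cut back to single strands, and Brca1, Palb2 and Brca2 prepare these strands to pair with the intact copy. The Fanconi pathway removes crosslinks between the DNA strands: a core complex with the ligase Fancl adds ubiquitin to Fancd2 and Fanci, after which nucleases cut the crosslink out and recombination completes the repair. Atr and its effector Chek1 halt the cycle when replication forks stall. Many of these genes are known to be transcribed from late G1 into S phase under E2F factors, and inherited Brca1 or Brca2 mutations are a cause of breast cancer in people.

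No deposited value lay below a floor of 3.32, the log2 of a linear level of 10, and between 44.8% and 48% of the probe sets of an array lay at this floor. A difference that involves a floor value is a lower bound and is written with "at least". The array medians ran from 3.48 to 3.70, with the untreated Sca1+ array lowest, and among probe sets with a mean linear level of 100 or more they ran from 8.20 to 8.24. A check of RNA integrity, the excess of 3' over 5' actin signal, read 0.69, 0.81, 0.83 and 0.91 (log2) in the order given above. The same measure for Gapdh read -0.10, -0.06, -0.01 and 0.11. Both stepped up in that array order, and their part in the results was not tested. Of 9 luminal and basal epithelial markers, 8 were above the floor on all arrays, Krt19 being at the floor. The summed linear level of the luminal markers was 5592, 9156, 4684 and 6482, and that of the basal markers 7639, 5403, 4772 and 4493. The basal markers did not move together. Krt5 read 11.46, 10.77, 7.47 and 7.63, and Acta2 7.65, 7.93, 4.78 and 4.84. Krt14, also a basal keratin gene, read 11.77, 11.54, 11.87 and 11.92, and Trp63 10.14, 8.77, 9.70 and 8.63. The Sca1 gene Ly6a was not analysed here, so the sort was not checked on it. All 4 T-cell markers measured were at the floor on all arrays, as were 3 of 5 leukocyte markers, Ptprc among them, and 2 of 4 endothelial markers. The summed linear level ran from 57.0 to 64.0 over the 5 leukocyte markers on the untreated arrays and from 124 to 129 on the dox arrays. Over 4 fibroblast markers it ran from 70.2 to 70.9 and from 392 to 719. Nearly all of that difference was Dcn, which read 9.41 and 8.42 with dox against the floor without. The part of these markers in the results was not tested.

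Promoter sequences are shown for genes that differ in their response. E2F sites are a known control element of S-phase genes, and their part in the differences reported here was not tested. RefSeq windows from 250 bases before to 50 bases after the annotated start (build GRCm38.p6) were found for 26 of the 33 genes. They were searched on both strands for 4 spellings of the E2F site (TTTCCCGC, TTTGGCGC, TTTGCCGC and TTTCGCGC). For 7 of the 26 genes (26.9%) a window held a spelling: Bard1, Brca2, Rad51c, Fancg, Chek2, Clspn and Topbp1. The same held for 2.60% of the 27025 genes with a window. The related core GGCGGGAA, which can overlap TTTCCCGC on the other strand and was added after the windows had been read, was in windows of 5 of the 26 genes (19.2%): Rad51ap1, Rad51c, Fancb, Fancm and Chek1. It was in those of 2.52% of all genes. The CCAAT box (CCAAT) was in windows of 15 of the 26 genes (57.7%) against 41.1% of all genes, and the CHR element (TTTGAA) in those of Bard1 and Eme1 only, 7.69% against 20.2%. Printed below are 200 bases before and 30 after the annotated start, 5′ to 3′ on the strand of the gene, with E2F spellings, the E2F core and CCAAT boxes in capitals and all other bases in lower case.
Rad51ap1 (chr6:126939558-126939787, minus strand): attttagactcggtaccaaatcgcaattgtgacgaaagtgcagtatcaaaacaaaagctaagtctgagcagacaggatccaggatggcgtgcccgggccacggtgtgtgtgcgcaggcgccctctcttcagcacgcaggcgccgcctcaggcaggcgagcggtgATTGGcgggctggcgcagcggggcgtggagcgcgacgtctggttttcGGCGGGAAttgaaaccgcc
Rad54l (chr4:116123661-116123890, minus strand): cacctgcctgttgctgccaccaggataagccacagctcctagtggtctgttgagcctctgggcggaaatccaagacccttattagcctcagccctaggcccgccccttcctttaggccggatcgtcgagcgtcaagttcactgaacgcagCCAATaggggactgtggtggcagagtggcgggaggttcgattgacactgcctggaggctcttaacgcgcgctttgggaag
Clspn (chr4:126556780-126557009, plus strand): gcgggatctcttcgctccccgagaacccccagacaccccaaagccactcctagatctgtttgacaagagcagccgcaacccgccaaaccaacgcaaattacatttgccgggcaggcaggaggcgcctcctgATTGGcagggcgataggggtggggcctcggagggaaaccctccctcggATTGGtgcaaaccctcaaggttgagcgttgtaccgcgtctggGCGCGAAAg
Topbp1 (chr9:103305127-103305356, plus strand): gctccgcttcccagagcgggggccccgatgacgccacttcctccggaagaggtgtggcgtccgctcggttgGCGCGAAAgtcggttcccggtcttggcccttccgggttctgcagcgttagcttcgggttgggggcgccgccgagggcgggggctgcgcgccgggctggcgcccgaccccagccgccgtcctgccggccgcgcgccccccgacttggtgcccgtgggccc
Rad51c (chr11:87404477-87404706, minus strand): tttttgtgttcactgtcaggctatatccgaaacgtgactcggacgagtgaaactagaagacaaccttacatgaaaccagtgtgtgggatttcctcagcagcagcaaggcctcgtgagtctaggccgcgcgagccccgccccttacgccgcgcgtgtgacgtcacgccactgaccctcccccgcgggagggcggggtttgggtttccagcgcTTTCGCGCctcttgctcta
Fancg (chr4:43010272-43010501, minus strand): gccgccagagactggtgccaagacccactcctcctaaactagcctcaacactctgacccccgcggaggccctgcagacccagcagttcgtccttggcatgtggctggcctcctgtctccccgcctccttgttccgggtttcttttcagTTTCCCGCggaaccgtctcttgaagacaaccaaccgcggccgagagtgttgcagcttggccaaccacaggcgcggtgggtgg
Rad54l and Rad51ap1 had the largest mean dox differences over both fractions among genes measured above the floor on all arrays. The Rad51ap1 window carries the E2F core just past its start and the Rad54l window none of the E2F letters searched. Clspn, the next lowest in Sca1- cells, holds an E2F spelling and 2 CCAAT boxes. Topbp1 and Rad51c hold an E2F spelling and, by the probe sets used, were less than 2-fold lower in at least 1 fraction. Fancg holds one at position -52 to -45 and barely differed by its chosen probe set. A match of letters is a description and does not show that a factor binds there.

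**Figure D1:**
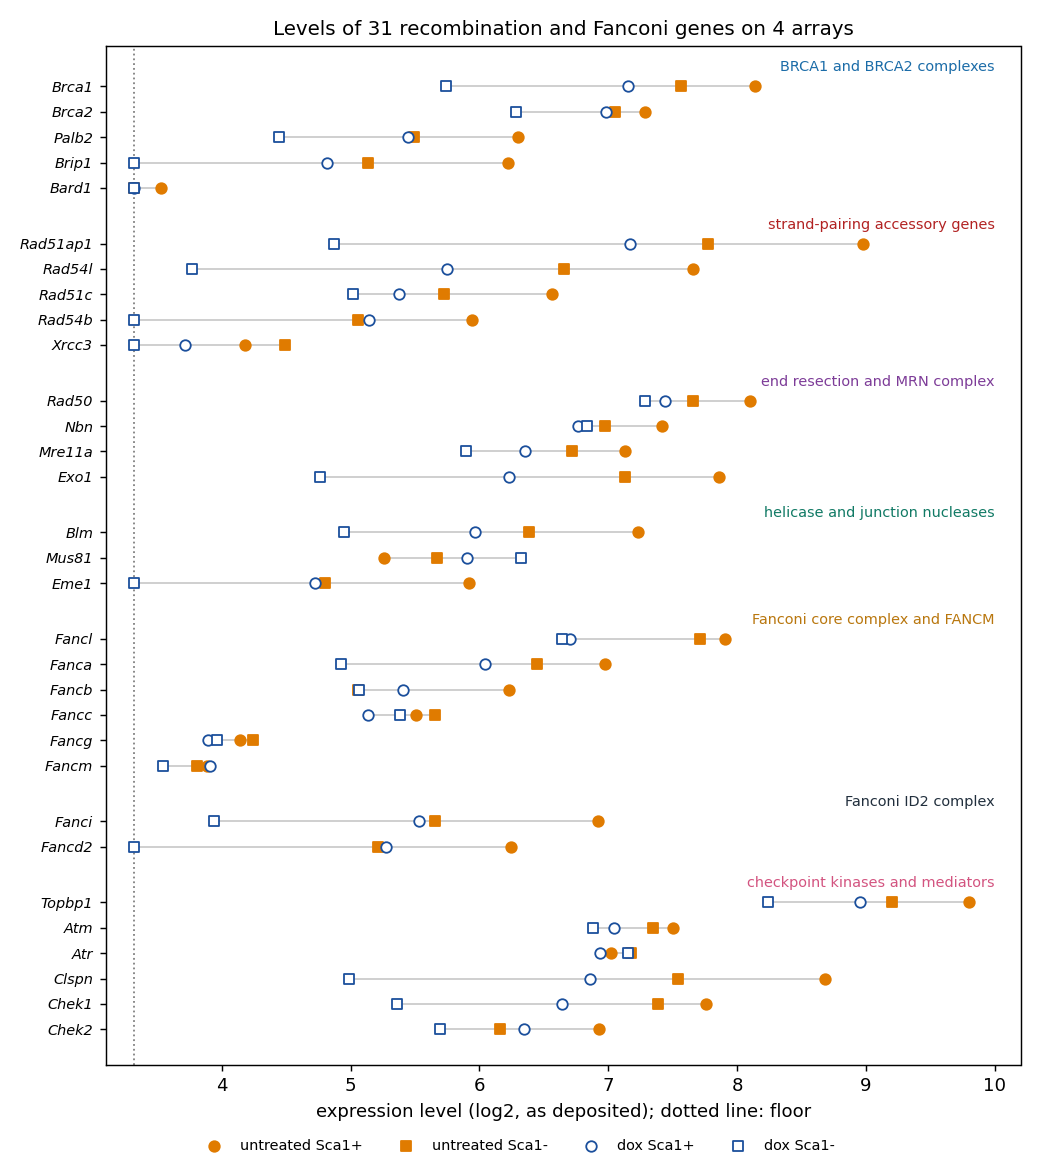
Log2 expression level (horizontal axis) of the 31 measured genes (rows, grouped by role) on the untreated Sca1+ (filled circle), untreated Sca1- (filled square), dox Sca1+ (open circle) and dox Sca1- (open square) array, 1 array per group, with the floor at 3.32 dotted. In 23 genes both dox arrays lie left of both untreated arrays, and Mus81 is the gene that runs the other way.

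With dox, most of the 31 recombination and Fanconi genes of this set were lower in both Sca1 fractions. Further genes of these pathways, given below, differed less. In Sca1+ cells 11 of the 31 genes passed 2-fold downwards and none upwards, against 12.9% of the 12264 genes analysed that were lower and 8.47% that were higher. In Sca1- cells 16 of 31 passed it downwards and none upwards, against 11.3% and 7.20% of all genes. Both at once held for 10 genes: Brip1, Rad51ap1, Rad54l, Exo1, Blm, Eme1, Fancl, Fanci, Chek1 and Clspn. Of all genes, 8.56% were lower and 5.29% higher in both fractions. The median difference of the 31 genes was -0.85 in Sca1+ and -1.05 in Sca1- cells (log2), against 0.03 and 0.02 over all genes analysed. At any size, 29 of the 31 were below 0 in Sca1+ and 28 in Sca1- cells, where Bard1 was at the floor on both arrays. With each array centred on its own median, each difference in Sca1+ cells moved by -0.19, and 17 genes were then 2-fold lower there. Averaging all probe sets of a gene, which brings in dim and floor-level ones, left 7 genes lower in Sca1+ cells, 10 in Sca1- cells and 6 in both. A stricter floor, at a linear level of 32, left 9 in Sca1- cells, with a median of -0.47.

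**Figure D2:**
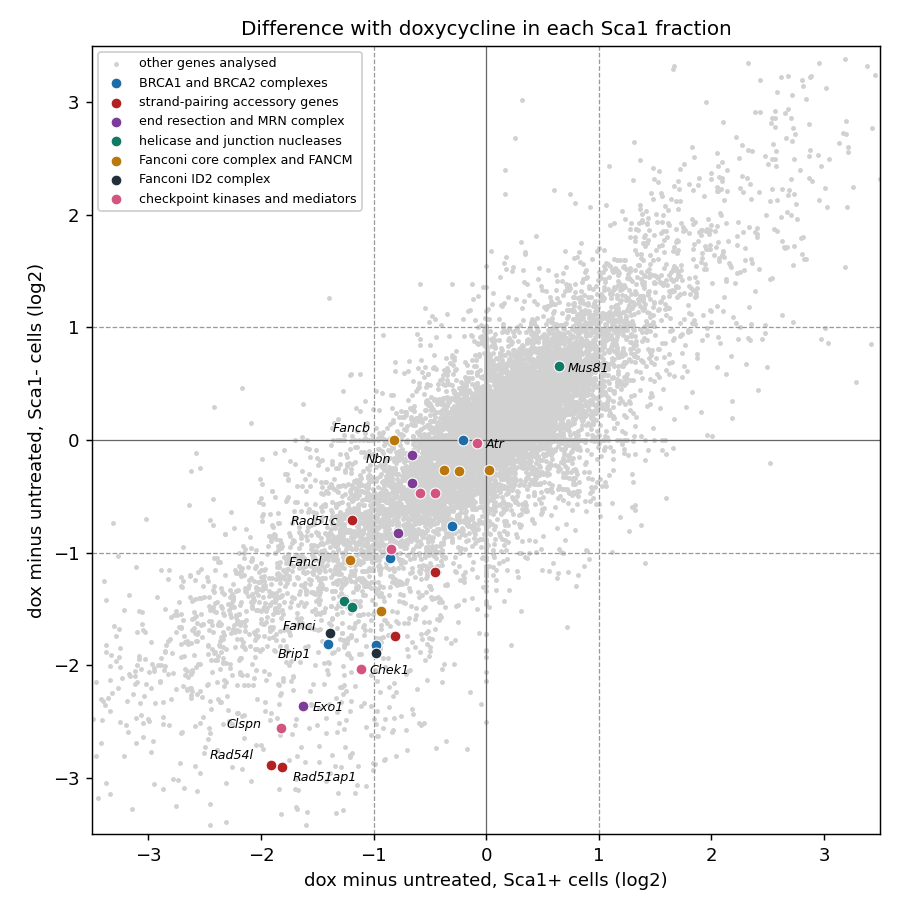
Dox minus untreated log2 difference in Sca1+ cells (horizontal) and in Sca1- cells (vertical) for the 31 genes (coloured by role) and the other genes analysed (grey; those beyond 3.5 in either direction lie outside the axes), each point from 1 array per group and floor values taken as measured. Dashed lines mark 2-fold. Rad51ap1, Rad54l, Clspn and Exo1 lie farthest down and left, and Mus81 alone lies above 0 in both fractions.

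Accessory genes of strand pairing held the 2 largest mean differences among genes above the floor on all arrays. Rad51ap1, which stimulates strand pairing, read 8.98, 7.77, 7.17 and 4.87, and was 3.51-fold lower with dox in Sca1+ and 7.47-fold lower in Sca1- cells. Its other 3 probe sets were also lower in both fractions: they differed by -1.41, -1.57 and -1.79 (log2) in Sca1+ cells. In Sca1- cells one differed by -3.12, and the other two ended at the floor, with differences of at least -1.69 and -2.01. Rad54l, a motor protein that acts on chromatin during strand pairing, read 7.66, 6.66, 5.75 and 3.77, which is 3.77-fold and 7.38-fold lower in the same order of fractions. For both genes the level stepped down from untreated Sca1+ to dox Sca1- cells, and both dox arrays lay below both untreated arrays. Rad54b, its paralogue, read 5.95, 5.06, 5.14 and the floor. It was 1.75-fold and at least 3.34-fold lower, and its dox Sca1+ level lay above its untreated Sca1- level. Rad51c, needed for recombination and for crosslink repair, read 6.56, 5.73, 5.37 and 5.02. Its difference was smaller in Sca1- cells, 2.28-fold against 1.63-fold in that order, while its second probe set gave -1.17 and -1.06 (log2). Xrcc3, whose product forms a complex with that of Rad51c, was near the floor throughout (4.18, 4.49, 3.72 and the floor), 1.37-fold and at least 2.25-fold lower, and its probe set is of a type that can match similar transcripts. Its second probe set went the other way in Sca1+ cells, with a difference of 0.40 (log2), and ended at the floor in Sca1- cells.

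Of the genes of the Brca1 and Brca2 complexes, Brip1, Brca1 and Palb2 were 2-fold lower in at least 1 fraction. Brca1, the ubiquitin ligase subunit that directs breaks to recombination, read 8.14, 7.57, 7.16 and 5.74. With dox it missed the 2-fold line among Sca1+ cells at 1.98-fold and was 3.54-fold lower among Sca1- cells. A dimmer Brca1 probe set differed by -1.36 (log2) and, ending at the floor, by at least -1.31, and the other two Brca1 sets were at the floor on 3 arrays each. Brip1, a DNA helicase that binds Brca1, read 6.22, 5.13, 4.82 and the floor, 2.64-fold and at least 3.51-fold lower. Palb2, the bridge between Brca1 and Brca2, read 6.30, 5.49, 5.45 and 4.44, 1.80-fold and 2.07-fold lower. Brca2, the product that Palb2 brings to breaks, read 7.29, 7.05, 6.98 and 6.28 and differed least of these: 1.23-fold in Sca1+ and 1.70-fold in Sca1- cells. Brca1 and Brca2 form one pathway, yet their differences in Sca1- cells were -1.82 and -0.77 (log2).

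In end resection the nuclease gene Exo1 stood away from the complex that senses breaks. Exo1 read 7.86, 7.13, 6.23 and 4.76, 3.08-fold and 5.14-fold lower. The 3 genes of the sensor complex were less than 2-fold lower in both fractions. Mre11a, its nuclease, read 7.13, 6.72, 6.35 and 5.89, 1.72-fold and 1.77-fold lower. Rad50, its ATPase, was 1.58-fold and 1.3-fold lower, and Nbn, which recruits Atm, 1.57-fold and 1.10-fold. Nbn read 7.42, 6.97, 6.77 and 6.84, so its dox arrays differed from each other by only 0.07.

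The enzymes that resolve joined DNA molecules went apart. Blm, the Bloom syndrome helicase that dissolves crossed-over intermediates, read 7.23, 6.38, 5.96 and 4.95, 2.40-fold and 2.7-fold lower. Eme1, the partner subunit of the Mus81 nuclease, read 5.92, 4.80, 4.73 and the floor, 2.28-fold and at least 2.79-fold lower. Mus81, the catalytic subunit of the same nuclease, read 5.26, 5.67, 5.91 and 6.33, higher with dox by 1.57-fold in each fraction. Its second probe set differed by 0.27 and 0.79 (log2), and the first is of a type that can match several transcripts. Of the 37 other probe sets of these genes, 28 reached the pooled median on an array. Of those 28, 17 were lower with dox in both fractions at any size and 3 were higher in both. At 2-fold, 10 were lower in both fractions and 0 were higher in any. The matching share over all probe sets of the array was not counted. By the probe sets used, Mus81 stayed below the 2-fold line, and the other 30 genes had a mean dox difference below 0.

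The Fanconi core complex differed less than its targets. Of the 6 genes of the core complex and Fancm, Fancl was 2-fold lower in both fractions and Fanca in Sca1- cells, with a median over the 6 of -0.60 in Sca1+ and -0.27 in Sca1- cells (log2). Fancl, the ligase subunit, read 7.91, 7.71, 6.70 and 6.64, 2.31-fold and 2.10-fold lower, so it split by treatment and hardly by Sca1. Its other probe set was at the floor on all arrays. Fanca, a scaffold subunit, read 6.97, 6.45, 6.04 and 4.93, 1.91-fold and 2.86-fold lower. Fancb, encoded on the X chromosome, read 6.23, 5.06, 5.41 and 5.06, so by this probe set the untreated Sca1+ array alone stood high. Fancc, Fancg and Fancm, the last a motor protein that finds stalled forks, differed by at most 1.3-fold in either fraction by the probe sets used. Fancg and Fancm were close to the floor. Dimmer sets differed more and in both directions (log2): -0.71 for Fancc and 0.52 for Fancg in Sca1- cells. A dimmer Fancm set rose from the floor by at least 0.67 in Sca1+ cells. Of the pair that receives ubiquitin, Fanci read 6.92, 5.66, 5.53 and 3.94, 2.62-fold and 3.28-fold lower. Fancd2 read 6.25, 5.21, 5.27 and the floor, 1.97-fold and at least 3.70-fold lower, and a second Fancd2 probe set differed by -1.54 and, ending at the floor, by at least -0.89 (log2).

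Among checkpoint genes, the effector arm of Atr was 2-fold lower and the kinases Atm and Atr stayed below that line. Clspn, the adaptor through which Atr activates Chek1, read 8.68, 7.54, 6.86 and 4.99, 3.53-fold and 5.87-fold lower. Its dimmer second probe set gave -0.59 and -1.35 (log2), so it did not pass 2-fold in Sca1+ cells. Chek1, the kinase that restrains entry into mitosis, read 7.76, 7.39, 6.64 and 5.36, 2.16-fold and 4.08-fold lower. Its chosen probe set is of a type that can match several transcripts. A second set gave -1.23 and -2.09 (log2), and another gave -2.23 and, ending at the floor, at least -1.43. Topbp1, the activator of Atr, read 9.80, 9.20, 8.95 and 8.24, 1.80-fold and 1.95-fold lower, on both sides just short of 2-fold. Chek2, the effector of Atm, was 1.5-fold and 1.38-fold lower. Atm read 7.50, 7.35, 7.05 and 6.88, 1.37-fold and 1.38-fold lower. Atr, by its chosen probe set, read 7.02, 7.18, 6.94 and 7.15, within 1.06-fold of its untreated level in each fraction. One dimmer Atr set gave -0.04 and 0.08 (log2), and the dimmest was higher with dox by 0.63 and 0.215.

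Sca1+ cells had higher levels of these genes than Sca1- cells, with and without dox. Without dox 8 of the 31 genes passed 2-fold towards Sca1+ cells and none towards Sca1- cells, against 3.07% of all genes higher and 3.33% lower. With dox 14 were higher and none lower, against 2.52% and 2.98%. Higher both times were 7 genes: Brip1, Rad51ap1, Rad54l, Eme1, Fancd2, Fanci and Clspn, where 1.08% of all genes were higher and 0.881% lower both times. The median Sca1+ minus Sca1- difference of the 31 genes was 0.57 without and 0.70 with dox (log2), against -0.01 and -0.03 over all genes analysed. With each array centred on its own median, every difference without dox moved by 0.22. Averaging all probe sets of a gene left 3 genes higher without dox, 7 with dox and 3 both times. The stricter floor at 32 left 6 with dox and 2 both times, with a median with dox of 0.35.

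**Figure D3:**
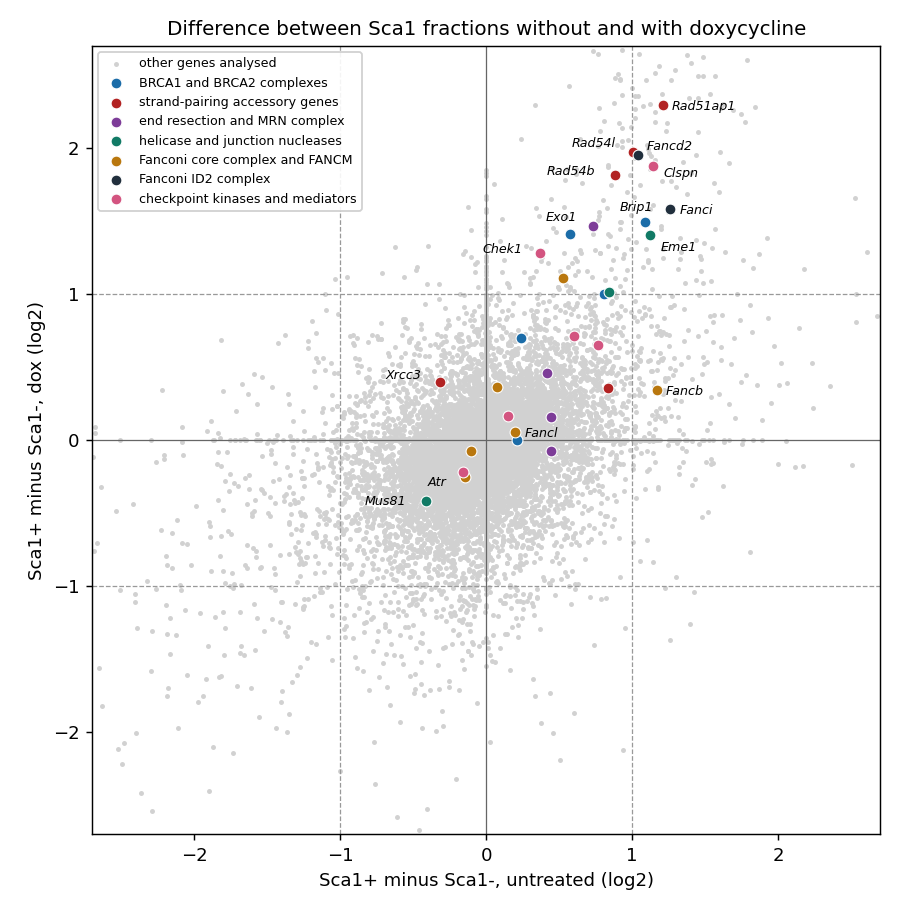
Sca1+ minus Sca1- log2 difference in untreated cells (horizontal) and in dox cells (vertical) for the 31 genes (coloured by role) and the other genes analysed (grey; those beyond 2.7 in either direction lie outside the axes), each point from 1 array per group and floor values taken as measured. Dashed lines mark 2-fold. The upper right corner holds Rad51ap1, Rad54l, Fancd2, Clspn, Fanci, Brip1 and Eme1, and Fancb is 2-fold higher on the untreated side alone.

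By the probe sets used, Fanci had the largest difference without dox, 1.26 (log2). Dimmer sets of other genes gave more: 1.96 for Fancd2, 1.40 for Chek1 and 1.30 for Rad51ap1. With dox no order was settled at the top, since the values of Fancd2 and Rad54b are lower bounds. Fanci was higher in Sca1+ cells by 2.40-fold without dox and 3-fold higher with dox. Fancd2 was 2.05-fold higher and at least 3.87-fold higher. Rad51ap1 was 2.31-fold higher without dox and 4.91-fold higher with dox. Clspn was 2.21-fold and 3.67-fold higher, and Rad54l 2.00-fold and 3.93-fold, its untreated value lying on the 2-fold line. The dimmer second probe set of Clspn gave 0.57 without and 1.33 with dox (log2). Brip1 was 2.12-fold and at least 2.82-fold higher, and Eme1 2.17-fold and at least 2.65-fold. These 7 genes span the Brca1 complexes, the strand-pairing genes, the junction nucleases, the ubiquitin targets and the checkpoint, and none encodes a subunit of the Fanconi core.

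Another 7 genes were 2-fold higher in Sca1+ cells with dox and not without: Brca1 (2.66-fold), Palb2 (2.01-fold), Rad54b (at least 3.52-fold), Exo1 (2.76-fold), Blm (2.02-fold), Fanca (2.16-fold) and Chek1 (2.44-fold). Their untreated differences lay between 1.29-fold for Chek1 and 1.85-fold for Rad54b, all in the same direction. For some the split depended on the array scale. Centring each array on its own median raised untreated differences by 0.22 (log2). Those of Palb2 (0.81 before centring), Blm (0.84) and Rad54b (0.88) then passed 2-fold too. For Chek1 this depended on the probe set. A second set gave 0.37 without and 1.23 with dox (log2). A dimmer one gave 1.40 without and, against the floor, at least 0.60 with dox. Fancb, by its chosen probe set, was 2.25-fold higher without and 1.27-fold higher with dox, so its larger difference was the untreated one. Its other set, near the floor, gave 0.07 without dox. With dox it gave, from a floor value in Sca1+ cells, at least -0.04 (log2). Fancl, 2-fold lower with dox in both fractions, differed by 1.15-fold and 1.04-fold between them. Mus81, by its chosen probe set, was lower in Sca1+ cells, by 1.33-fold without and 1.34-fold with dox. Its second probe set gave 0.25 without and -0.27 with dox (log2), so the untreated direction differed between the sets. By the probe sets used, Fancc, Fancg and Atr were lower in Sca1+ cells both times by at most 1.19-fold.

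Most genes of the set shared one order of the arrays. In 19 of the 31 the levels stepped down in the order untreated Sca1+, untreated Sca1-, dox Sca1+, dox Sca1-, as in 6.82% of all genes analysed. The untreated Sca1+ array was highest and the dox Sca1- array alone was lowest in 22 of 31, as in 10.1% of all genes, and both dox arrays lay below both untreated arrays in 23 of 31, as in 29.1% of all. Nothing was tested in these counts, and they rest on the same arrays as the differences above. The actin and Gapdh measures of RNA integrity given above step through the arrays in the same order, and their part in it was not tested. Fancd2, Rad54b and Chek2 had the extremes in that order but the dox Sca1+ level above the untreated Sca1- level. The middle of the order was tight for Palb2 (5.49 and 5.45), Eme1 (4.80 and 4.73) and Fancd2 (5.21 and 5.27), whose untreated Sca1- and dox Sca1+ levels nearly coincided.

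The dox difference was larger in Sca1- than in Sca1+ cells for the genes that were lowest. In 20 of the 31 genes the level was lower with dox in both fractions and by more in Sca1- cells, as in 13.9% of all genes. That count asks first for a lower level in both fractions, so it partly restates the dox difference. Without this condition, 21 of the 31 had a lower dox effect in Sca1- cells and 10 a higher one. Of all 12264 genes analysed, 5970 had a lower and 6294 a higher one. With floor values taken as measured, Rad51ap1 alone differed by 2-fold or more between the fractions in its dox effect (-1.09, log2). Rad54b, Fancd2, Xrcc3, Brip1 and Eme1 ended at the floor, so theirs are lower bounds that may pass that line. Of all genes, 3.69% had a dox effect that lay 2-fold or more lower among Sca1- cells and 3.44% a 2-fold higher one. Rad54l (-0.97), Rad54b (at least 0.93 lower), Chek1 (-0.92), Fancd2 (at least 0.91 lower) and Brca1 (-0.84) came next. The median over the 31 genes was -0.20, against 0.01 over all genes analysed. This median and the counts at any size depend on the array scale. With each array centred on its own median, the value for the 31 genes became 0.03, with 0 genes 2-fold lower. All genes then had a median of 0.24. The counts at any size were not repeated after centring. With a stricter floor at a linear level of 32 the median over the 31 genes was 0.01. The other way lay Fancb (0.82), Nbn (0.52) and Rad51c (0.48), whose dox effects were the smaller ones in Sca1- cells.

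Further genes of recombination and the Fanconi pathway differed less than the set itself. Of 35 such genes 33 were measured. In both fractions 2 were at least 2-fold lower with dox and 1 higher, no larger a share than the 8.56% and 5.29% of all genes. The median was -0.18 in Sca1+ and -0.31 in Sca1- cells (log2). Hells, a chromatin remodelling helicase, read 9.41, 9.06, 7.50 and 6.57. Ube2t, the conjugating enzyme that works with Fancl, read 7.67, 6.53, 6.65 and 5.48, so it was lower with dox by 1.02 and 1.06 and higher in Sca1+ cells by 1.14 and 1.17. Dna2, a resection nuclease, was lower by 0.51 and 1.69, and Ercc4, a crosslink-cutting nuclease, by 1.46 and 0.68. Sfr1, a recombination cofactor, was higher by 1.27 and 1.34. Of 14 genes of the checkpoint clamp, its loader and adaptors, 4 were 2-fold lower in both fractions and 0 higher. They were the clamp gene Hus1 (8.12, 7.67, 5.23 and 5.54), the histone gene H2ax (9.27, 8.64, 7.66 and 6.81), the fork protein gene Tipin (-1.07 and -1.38) and the phosphatase gene Cdc25a (-1.03 and -1.16). Unlike H2ax, Hus1 was lower on the dox Sca1+ than on the dox Sca1- array.

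Other repair routes did not share the direction. Of 11 measured genes of non-homologous end joining, which rejoins broken ends without a template, 0 were 2-fold different in both fractions, and the median dox difference was 0.07 in Sca1+ and 0.09 in Sca1- cells (log2). Rif1, which restrains resection, was lower by 1.13 and 0.90, while Xrcc4, a scaffold of end ligation, was higher by 0.78 and 1.19. Of 21 genes of base and nucleotide excision repair, which replace damaged bases and short strands, 0 were 2-fold different in both, and the medians were 0.29 and 0.21. Lig3, a DNA ligase, was higher by 1.01 and 0.59, and Ercc3, a repair helicase, by 0.65 and 0.95. Centring each array on its own median would lower each value in Sca1+ cells by 0.19 and change the sign of the end-joining median there. Targets of p53 went both ways: 3 of 17 were 2-fold higher in both fractions and 2 lower, with Pmaip1 higher by 2.84 and 3.03 and Phlda3 lower by 4.0 and 2.82. The differences between these lists and the recombination genes were not tested.

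Replication genes moved with the set, and further than it. Of 29 genes of the replication machinery 17 were at least 2-fold lower with dox in both fractions and 0 higher, with medians of -1.13 in Sca1+ and -1.75 in Sca1- cells (log2). Rrm2, a subunit of ribonucleotide reductase, read 11.35, 11.01, 9.51 and 7.92, in the same array order as most recombination genes. Of these 29 genes, 1 was 2-fold higher in Sca1+ cells without dox and 16 with dox, with medians of 0.47 and 1.05. For the recombination set the corresponding medians were 0.57 and 0.70. Of 14 E2F and DREAM regulators 3 were 2-fold lower in both fractions: E2f8, a repressor of the E2F family (8.45, 7.52, 6.77 and 4.72), E2f2, an activator (5.79, 5.42, 4.57 and 4.20), and the S-phase transcription factor gene Mybl2 (6.21, 5.30, 4.82 and the floor). The part of replication activity in the levels of the recombination genes was not tested.

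**Figure D4:**
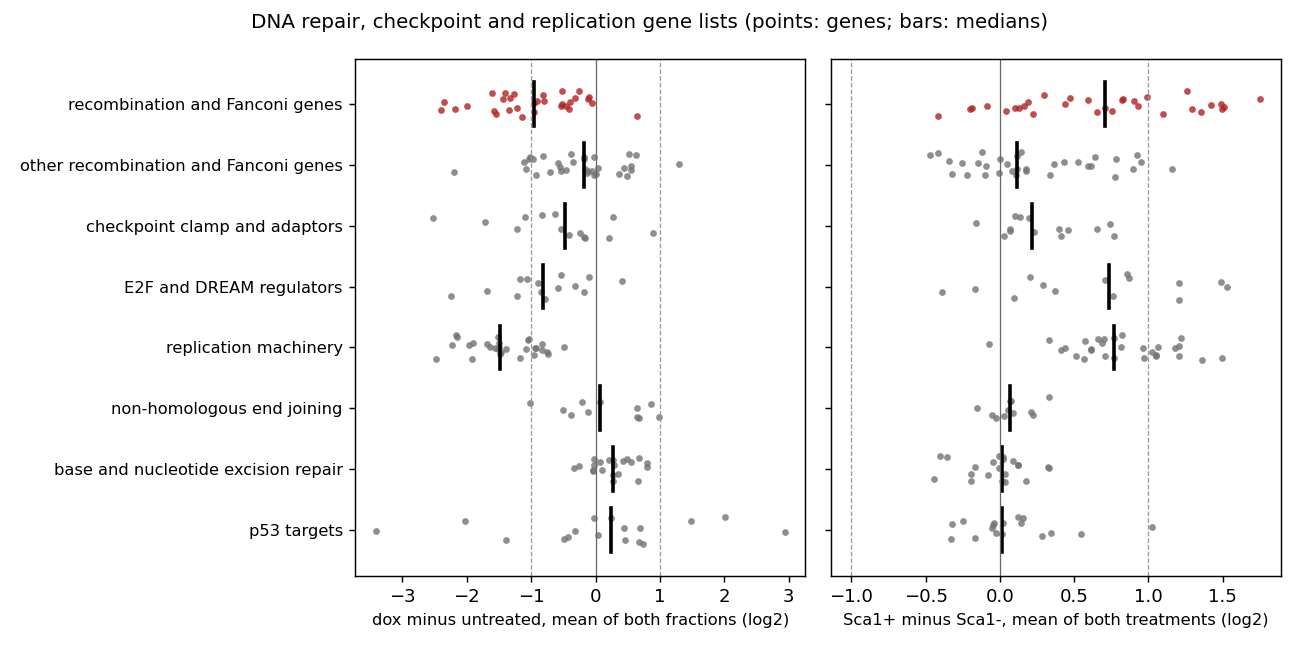
Mean dox difference over both fractions (left, log2) and mean Sca1 difference over both treatments (right, log2) of each gene (points) in 8 lists, with the list median as a black bar and 2-fold as dashed lines. The 31 recombination and Fanconi genes of the set (red, medians -0.95 and 0.71) lie with the E2F regulators and replication genes. The other recombination and Fanconi genes (medians -0.17 and 0.12) lie nearer 0, as do the excision repair and end-joining medians.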

How the data were processed

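RNA from 4 groups of Comma D beta cells was measured on 1 Affymetrix array each, labelled by a 3' IVT protocol per the labels. The deposited table gives log2 expression levels for 45101 probe sets. The sources used here do not say how the authors summarised and scaled the arrays. The floor at a linear level of 10 was read from the deposited values. A platform annotation named 1 gene for 34958 probe sets, several for 932 and none listed for 9211, and only the first were used. The probe set of highest mean stood for each gene, and 12264 of 18194 genes had an array at or above the pooled median. Differences of log2 levels were counted at 2-fold with Python 3.11.15 and pandas 2.3.3, and the counting was tested on simulated data. With 1 array per group no p-value was computed from these counts. An additive fit across all genes (limma 3.58.1, R 4.3.3) was an alternative. The genes, the lists and the size rule were chosen with earlier results of these data known. The number of arrays limits the precision. Genes were named in the text where they belong to the set, and from each further list the 4 with the largest mean dox difference could be named. A gene 2-fold different against its list's median could be named too. All array values were due for genes 2-fold different in both dox or both Sca1 differences, for a dox effect differing 2-fold between fractions, and for extremes. Ube2t, and members given with all array values beyond this, were chosen after their values were seen. The alternatives tried were other ways of choosing probe sets, array centring, floors, filters on low genes, a 1.5-fold rule and that fit.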

Additional observations from a re-analysis of the deposited data

Results flagged for a closer look

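Some genes differed in sign between the groups of the same contrast. None of these differences was tested, and each rests on 1 array per group. Fancb had a dox difference of -0.82 in Sca1+ cells and of 0.0041 in Sca1- cells (log2), while its other, dimmer probe set was lower in both, at -0.64 and -0.53. Fancm, close to the floor, had 0.021 and -0.27. For Xrcc3, also close to the floor, the Sca1+ minus Sca1- difference was -0.32 without and, against a floor value, at least 0.40 with dox. Its other probe set gave 0.18 without and, again against the floor, at least 0.98 with dox, so the change of sign was not seen there. For Nbn it was 0.45 without and -0.073 with dox.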

How the results depend on the processing

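No replicate block could be fitted, as each group has 1 array, and the additive fit below is what compares treatments within fractions. Counted were genes 2-fold lower with dox among Sca1+ cells (11 as reported), Sca1- cells (16) and both (10), genes higher in Sca1+ cells without dox (8), with dox (14) and both times (7), and genes with a dox effect 2-fold lower in Sca1- than in Sca1+ cells (1). In that order, averaging all probe sets of a gene gave 7, 10, 6, 3, 7, 3 and 0. Centring each array on its own median gave 17 in Sca1+ cells, and 0 for the difference of the dox effects, whose median turned from -0.20 to 0.033. Centring on bright probe sets gave 2 for that difference. A floor at 32 gave 9 in Sca1- cells, 6 with dox, 2 both times and 0 for the difference of the effects. Medians with that floor were -0.47 in Sca1- cells, -0.59 for the mean dox effect, 0.35 for Sca1 with dox and 0.0063 for the difference of the effects, which reversed. The 25 genes above the floor on all arrays gave 5 without dox, 4 both times and a median difference of effects of -0.12. A 1.5-fold rule gave 21 in Sca1+ cells and 18 in both fractions, 15 higher without dox, 13 both times and 9 for the difference of the effects, where 20.8%, 15%, 8.47%, 2.92% and 9.96% of all genes passed. Mus81 passed it as higher with dox in both fractions. In the additive limma fit, which has 1 residual degree of freedom among samples, 18 of 30 genes had an adjusted p (Benjamini-Hochberg) under 0.05 and were lower with dox, as were 14.8% of all genes, and Mus81 passed as higher (adjusted p = 0.0473). For Sca1, 0 of all genes passed as higher in that limma fit, and 19 of 30 were higher at an unadjusted p under 0.05, as were 6.17% of all genes. With no replicates, the residual of that limma fit is only how far the dox differences depart from each other between fractions. Its p-values therefore do not measure a spread between replicate cultures. Apart from the difference of the effects, no count or median here changed direction. Of 124 single differences of genes, those past 2-fold as reported were the 11 and 16 for dox and the 8 and 14 for Sca1. Only those could drop below 2-fold, and 22 of them did under probe-set averaging and 17 under the stricter floor. None of those past 2-fold changed sign under these settings or either centring. Why these settings change the counts was not tested. Levels near the floor limit what can be seen: the dox Sca1- values of Brip1, Rad54b, Xrcc3, Eme1 and Fancd2 are at it.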
